A study of Drosophila melanogaster with 4 samples.

Results

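The X chromosome of Drosophila melanogaster was examined for domains of histone H3 trimethylated at lysine 27 (H3K27me3), using deposited regions of significant enrichment, called clusters here, that lie on sequence X. The chromosome held 417 of the 2510 clusters of ChIP replicate 1, 308 of the 1819 clusters of ChIP replicate 2, and 784 of the 4966 clusters of a combined list made for the whole series. The members were chosen by chromosome name alone. The material was whole wild-type Oregon-R larvae of the third instar, cross-linked with formaldehyde. There were 2 libraries precipitated with a mouse monoclonal antibody against H3K27me3 and 2 libraries of input DNA, taken from the chromatin without precipitation. The labels do not give the sex of the larvae, or the number of larval collections, and part of the spread between replicates may be technical. Whole larvae are a mixture of tissues, so partial marking in all cells and full marking in some cells cannot be told apart. Coordinates are those of FlyBase release 5.

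H3K27me3 is laid down by Polycomb repressive complex 2, whose catalytic subunit is Enhancer of zeste. It is bound by the Polycomb protein, a subunit of Polycomb repressive complex 1, and marks developmental genes that are kept silent. In flies the mark typically spreads over many kilobases around the elements that recruit these complexes. The X chromosome carries well-known Polycomb targets such as the homeobox gene cut and the achaete-scute complex of proneural genes. It is present as a pair in females and as a single copy in males. Genes were not placed on the clusters, because the annotation at hand belongs to another release of the genome. For the same reason no sequence of the clusters is shown.

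X was compared with the pooled autosomal arms 2L, 2R, 3L and 3R inside each replicate list, and the difference, X minus autosomes, was tested over the 2 replicates. With 2 replicates an exact paired permutation test cannot give a two-sided p below 0.5, so no difference between X and the autosomes can pass a threshold by this test. Of the 7 differences tested, 6 had the same sign in both replicates and this smallest p of 0.5 (exact permutation test, adjusted p = 0.583 by Benjamini-Hochberg over the 7). Many X values are therefore also set beside the values of the 4 single arms, and others only beside the pooled autosomes. Clusters of 1 chromosome are not replicates of it, and the number of reads behind the lists is unknown.

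The map of X was uneven: densely marked megabases stood beside nearly empty ones. Clusters covered 9.84% of X in replicate 1 and 11.2% in replicate 2, against 10.7% and 12.7% of the autosomes (X minus autosomes, -1.16 percentage points ± 0.427, SD, n = 2). X lay within the range of the single arms, whose values were 9.03% to 12.6% in replicate 1, and 11.2% to 14.0% in replicate 2. In the combined list it was below all 4 arms, with 15.7% covered against 16.1% to 18.8%. Over the 22 full bins of 1 Mb on X, coverage had a median of 6.55% in replicate 1 and 9.45% in replicate 2, both below the arm averages. In 7 bins both replicates covered under 5%, and in 6 bins both covered 15% or more. Nearly empty and dense bins were also found on the autosomes. Bins under 2% numbered 4 of 22 on X and 8 of 95 on the autosomes in replicate 1, and 3 and 10 in replicate 2. Bins of 20% or more numbered 3 on X and 10 on the autosomes in replicate 1, and 3 and 18 in replicate 2.

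The 3 densest bins were those from 7 to 8 Mb, 4 to 5 Mb and 8 to 9 Mb. The first had 32.0% in replicate 1 and 39.7% in replicate 2, and its clusters were also numerous, 58 and 34. The bin from 4 to 5 Mb had 25.1% and 25.5% in only 12 and 7 clusters. The bin from 8 to 9 Mb had 20.2% and 22.2% in 13 and 15 clusters. All 3 bins held wide clusters: clusters of 10 kb or more numbered 5 in each replicate from 7 to 8 Mb, and 3 in replicate 1 and 2 in replicate 2 in each of the other bins. The bin from 7 to 8 Mb had many narrower clusters besides. Across the 22 bins, the Spearman correlation of coverage with cluster number was 0.506 in replicate 1 and 0.532 in replicate 2, given as a description of bins that share a library.

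The 3 emptiest bins were those from 11 to 12 Mb, 6 to 7 Mb and 12 to 13 Mb. The bin from 6 to 7 Mb had 0.911% covered in replicate 1 and 0.340% in replicate 2, from 6 clusters and 2 clusters. It adjoins the densest bin of the chromosome, so the emptiest and the densest kind of sequence lie side by side there. The bin from 12 to 13 Mb had 1.27% and 1.25%. In replicate 2 this was 1 cluster of 12.5 kb, and in replicate 1 it was 7 clusters with a median width of 1600 bp. The bin from 11 to 12 Mb had 0.438% and 0.678%, from 2 clusters and 4 clusters.

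**Figure D1:**
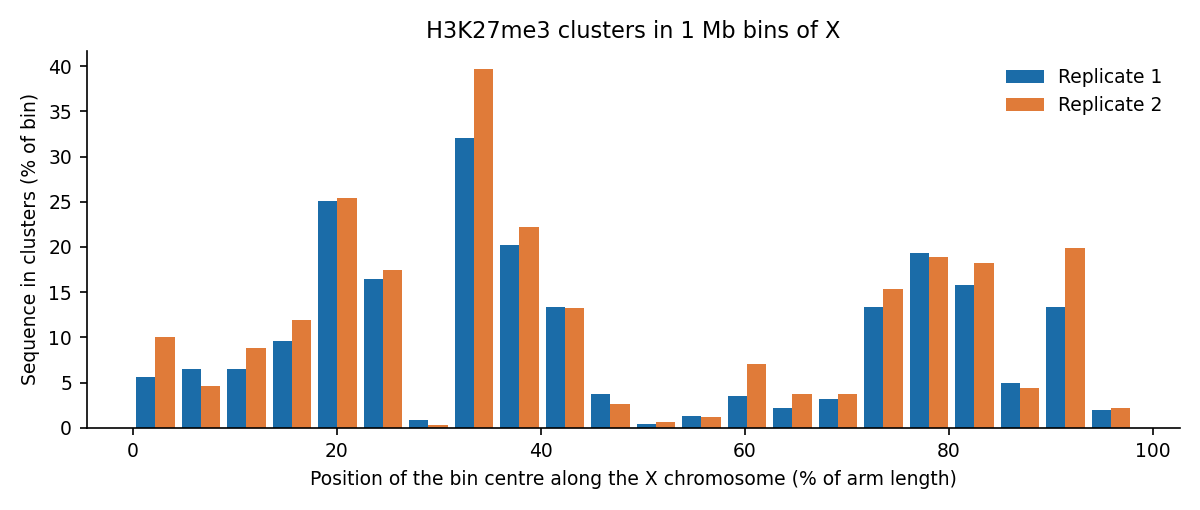
Share of each full 1 Mb bin of X that lies in H3K27me3 clusters (vertical axis, percent), by the position of the bin along the chromosome (horizontal axis, percent of arm length), with 1 bar for each ChIP replicate. The tallest pair of bars, 32.0% in replicate 1 and 39.7% in replicate 2, stands next to a bin under 1% in both, and a long run of low bars fills the middle of the chromosome.

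The replicates drew the same map of X at this scale. Their bin coverages had a Spearman correlation of 0.962 over the 22 bins, against 0.867 on 2L, 0.923 on 2R, 0.920 on 3L and 0.971 on 3R. Replicate 2 was higher in 15 of the 22 bins. The largest disagreements were in the bin from 7 to 8 Mb (SD 5.42 percentage points) and in the bin from 20 to 21 Mb, with 13.4% in replicate 1 and 19.9% in replicate 2.

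Grouping of the bins into blocks, chosen after the bins had been seen, shows how the mark was shared out. The 6 Mb from 4 to 10 Mb held 49.0% of the covered sequence of X in replicate 1 and 47.0% in replicate 2. The 5 Mb from 16 to 21 Mb held another 30.3% and 30.5%. The 6 Mb between these blocks, from 10 to 16 Mb, held 6.53% and 7.58%, and their own coverage was 2.40% and 3.19%. The distal 4 Mb, from 0 to 4 Mb, had 7.10% and 8.85% covered, with few wide clusters: 3 of 109 clusters in replicate 1 and 5 of 97 in replicate 2 reached 10 kb.

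The 5 densest bins held a larger share of the covered sequence on X than on any autosomal arm in all 3 lists. The 5 densest bins of X held 51.5% of the covered sequence that lay in full bins in replicate 1, 50.1% in replicate 2 and 42.9% in the combined list. On the autosomal arms the same share was 37.2% to 47.6% in replicate 1, 35.6% to 47.3% in replicate 2 and 33.1% to 38.7% in the combined list. The number of bins differs by arm, from 21 on 2R to 27 on 3R, and 22 on X. On an arm with more bins, 5 bins are a smaller part of the arm, which lowers this share by construction. The share was not corrected for that, so it does not rank X above the longer arms 3L and 3R in concentration. The SD of bin coverage on X was 8.69 percentage points in replicate 1 and 9.97 in replicate 2, against 7.91 and 9.11 for the pooled autosomal bins (difference 0.822 ± 0.0560, SD, n = 2, exact permutation p = 0.5). By this measure 3R was more uneven than X in each list, with 10.4 and 11.5 percentage points in the replicates.

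Windows without any cluster were common on X. Of 224 windows of 100 kb, 75 were empty in replicate 1 (33.5%) and 114 in replicate 2 (50.9%), against 28.9% and 45.4% of autosomal windows. X had the highest share among the 5 large arms in both replicates, but the nearest arms were close, 2L with 33.0% in replicate 1 and 3L with 49.4% in replicate 2. In the combined list X had 14.3% and 3L had more, 15.5%. Windows covered to 50% or more made up 7.59% of X in replicate 1 and 8.93% in replicate 2, against 6.42% and 9.12% of autosomal windows, so the sign of that difference changed between the replicates.

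The widest clusters of X held a large part of the mark, as they did on the autosomes. Clusters of 20 kb or more held 49.6% of the covered sequence of X in replicate 1, 62.3% in replicate 2 and 46.3% in the combined list. On the autosomes they held 51.2%, 64.8% and 48.6%. The 10 widest clusters of the combined list were 1.28% of its X clusters and 31.4% of the covered sequence, 1109 kb in all. Replicate 1 covered between 81.0% and 99.7% of each of them, and replicate 2 between 99.3% and 100%. The widest of all, from 4264919 to 4427987, spanned 163 kb and had a score of 2.22. Replicate 1 covered 97.3% of it in 3 clusters and replicate 2 covered 99.9% in 2. The replicate 1 list splits it at positions 4353368 to 4353369, a gap of 2 bp between clusters of 85.4 kb and 70.9 kb, which replicate 2 filled. Because of that gap the widest X cluster of replicate 1 was another one, of 90.7 kb, while replicate 2 listed 160 kb at the same place.

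The domain from 7394722 to 7550846 was different in structure. It spanned 156 kb in the combined list and 156 kb as a single cluster in replicate 2. Replicate 1 covered 81.0% of it, the lowest value among the 10 widest, in 16 clusters of which the widest had 57.0 kb. Its combined score of 1.50 was the 15th among X clusters of 5 kb or more. A similar pattern was seen from 16000151 to 16117649 (117 kb), with 89.9% in 11 clusters of replicate 1 and a single cluster in replicate 2. It recurred from 20547882 to 20631223 (83.3 kb), with 88.4% in 9 clusters of replicate 1. That last domain had a score of 1.15, the lowest of the 10, so in these lists the domains in most pieces were also the low-scoring ones among the widest.

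Compact domains of high score behaved otherwise. The highest-scoring X cluster of 5 kb or more in the combined list ran from 17645586 to 17688064, 42.5 kb wide, with a score of 2.74. The third ran from 17689274 to 17714993, 25.7 kb wide, with a score of 2.54. They are neighbours across 1209 bp, and no base of that stretch was in a cluster of either replicate. Replicate 1 covered 99.1% and 98.2% of them and replicate 2 covered 100% and 100%, each as 1 cluster per list. The second by score, from 8499445 to 8571693 (72.2 kb, score 2.59), was also 1 cluster in each replicate. The fourth, from 5422208 to 5510407 (88.2 kb, score 2.47), was 1 cluster in replicate 2 and 2 clusters in replicate 1.

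Other domains among the named 15 were intermediate. The 117 kb domain from 8615615 to 8732315 was covered at 98.6% and 100% in 3 clusters of replicate 1 and 1 of replicate 2, and the 115 kb domain from 17199516 to 17314549 at 97.8% and 99.3% in 4 clusters and 1. The 91.5 kb domain from 9581481 to 9673005 and the 81.3 kb domain from 18133026 to 18214303 were single clusters in both lists. The 95.8 kb domain from 7039907 to 7135696 was the exception at its left edge, where replicate 2 started 12435 bp further out than replicate 1. On the right, the wider of its 2 replicate 2 clusters ended at 7135160, close to the replicate 1 end at 7134551. The other replicate 2 cluster overlapped the domain only at its right end and ran on to 7155555. Counted to there, the outer edges differ by 21004 bp, the largest such distance of the 15. A pair of narrower domains completed the set, from 5886288 to 5929918 (43.6 kb) and from 9176631 to 9212370 (35.7 kb), each a single cluster in both replicates and at least 95.8% covered. Outer edges are those of the outermost clusters that overlap a domain. Of the 30 outer edges of the 15 domains, 19 agreed within 500 bp, and the median distance was 361 bp. Replicate 2 reached further at 29 of the 30, a direction that wide autosomal clusters shared, as given further on.

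**Figure D2:**
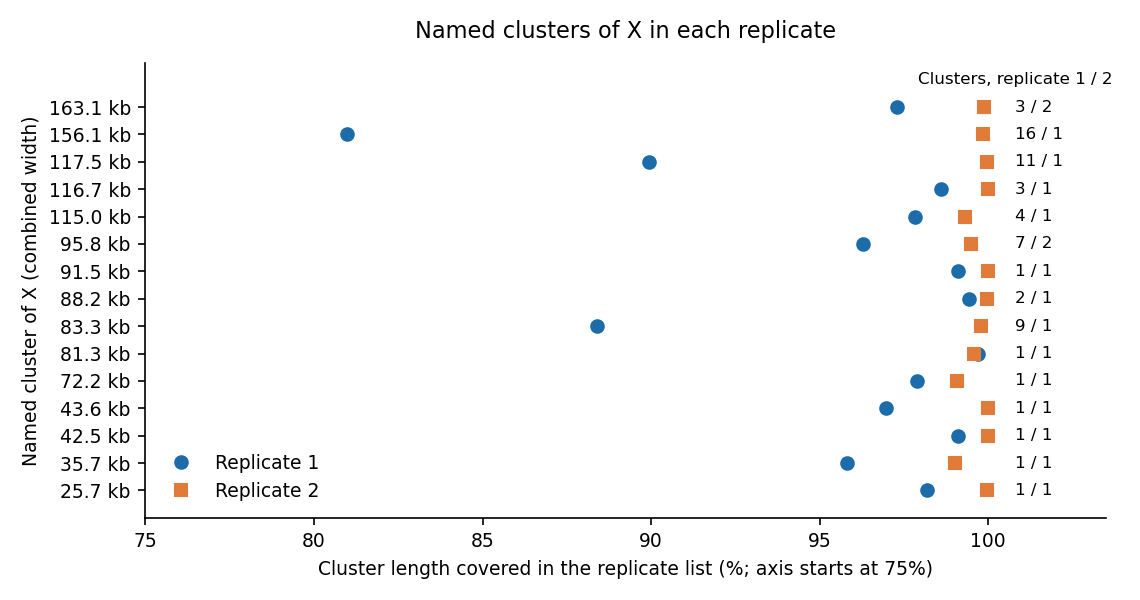
Share of each of the 15 named X domains that lies in clusters of each replicate (horizontal axis, percent, starting at 75%), with domains ordered by their width in the combined list and the number of overlapping clusters in replicate 1 and replicate 2 printed at the right. Replicate 2 covers at least 99.0% of every domain in mostly 1 cluster, and the lowest replicate 1 value is 81.0% for the 156 kb domain in 16 clusters.

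Wide clusters were spaced unevenly. Between clusters of 20 kb or more, the median distance on X was 371 kb in replicate 1 and 376 kb in replicate 2. This was inside the range of the autosomal arms, 239 to 707 kb in replicate 1 and 264 to 557 kb in replicate 2. The longest distance stood outside that range. In replicate 1 no cluster of 20 kb or more lay from 9672528 to 16025766, which is 6.35 Mb, and in replicate 2 none lay from 9673017 to 16000192, which is 6.33 Mb. The longest such distances on the autosomal arms were 2.63 to 5.05 Mb in replicate 1 and 2.22 to 3.61 Mb in replicate 2. The longest of these was on 3L in both replicates.

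This stretch was thinly marked and not empty. It held 77 clusters in replicate 1, covering 2.68% of it, and 57 in replicate 2, covering 3.10%. The widest inside it were 14.9 kb and 15.9 kb. Their median widths, 1722 and 2238 bp, were near those of X as a whole, 1897 and 2188 bp. The other replicate shared at least 1 bp with 36 of the 77 (46.8%) and 26 of the 57 (45.6%), below the shares for all of X given further on. In the longest such stretch of each autosomal arm this share was 35.1% to 79.7% in replicate 1 and 33.3% to 59.3% in replicate 2. By definition the X stretch holds no cluster of 20 kb or more, the class that was always found again. The length of the stretch depends on the width limit: with clusters of 10 kb or more it was 5.30 Mb in replicate 1 and 2.00 Mb in replicate 2, against 2.35 to 5.05 Mb and 1.67 to 3.00 Mb on the autosomal arms. At 5 kb or more it was 4.53 Mb and 1.78 Mb, against at most 2.69 Mb on the autosomal arms in each replicate. X therefore had the longest distance of the 5 arms at 20 kb in both replicates, but at 5 and 10 kb in replicate 1 alone. With clusters closer than 5 kb merged, the distance at 20 kb was 6.33 Mb in replicate 1 and 3.23 Mb in replicate 2, against at most 3.15 and 2.99 Mb on the autosomal arms.

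X also had the fewest wide clusters per length of the 5 large arms in all 3 lists. Clusters of 20 kb or more numbered 20 in replicate 1 and 22 in replicate 2, or 8.92 and 9.81 per 10 Mb. The pooled autosomes had 11.9 and 14.5 per 10 Mb, and the lowest single arm, 2R, had 9.46 and 12.3. At 10 kb or more, X had 14.7 per 10 Mb in both replicates and was not the lowest in replicate 1, where 2R also had 14.7.

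The longest runs of X without a cluster in either replicate were 897 kb from 10837004 to 11733526, 664 kb from 21433427 to 22097476, 443 kb from 16158184 to 16601468, 437 kb from 15563293 to 16000192 and 408 kb from 6448331 to 6856039. The longest on each autosomal arm were 608 kb on 2L, 762 kb on 2R, 462 kb on 3L and 593 kb on 3R, where those on 2L and 2R reach the end of the arm sequence. The combined list placed 9 clusters with 14.6 kb in the first run, 1.63% of it, and 2 clusters with 1.28 kb in the third, 0.290% of it. The fourth run ends beside the 117 kb domain that starts at 16000151, so an empty stretch and a wide domain share a boundary there. The part of these runs to which reads can be assigned was not determined.

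Distances between neighbouring clusters of any width gave no stable difference. The median was 8556 bp on X and 7894 bp on the autosomes in replicate 1, and 4808 bp on X and 4978 bp on the autosomes in replicate 2 (X minus autosomes, 246 bp ± 588, SD, n = 2, exact permutation p = 1). Most neighbours on X were thus close together, although the arm also held gaps of up to 901 kb in replicate 1 and 1008 kb in replicate 2. There were 18.6 and 13.7 clusters per Mb on X in replicates 1 and 2, against 20.96 and 15.03 on the autosomes (difference -1.83 ± 0.757, SD, n = 2, exact permutation p = 0.5). X was the sparsest arm in replicate 1, while 3R was sparser in replicate 2 with 13.3 per Mb.

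**Figure D3:**
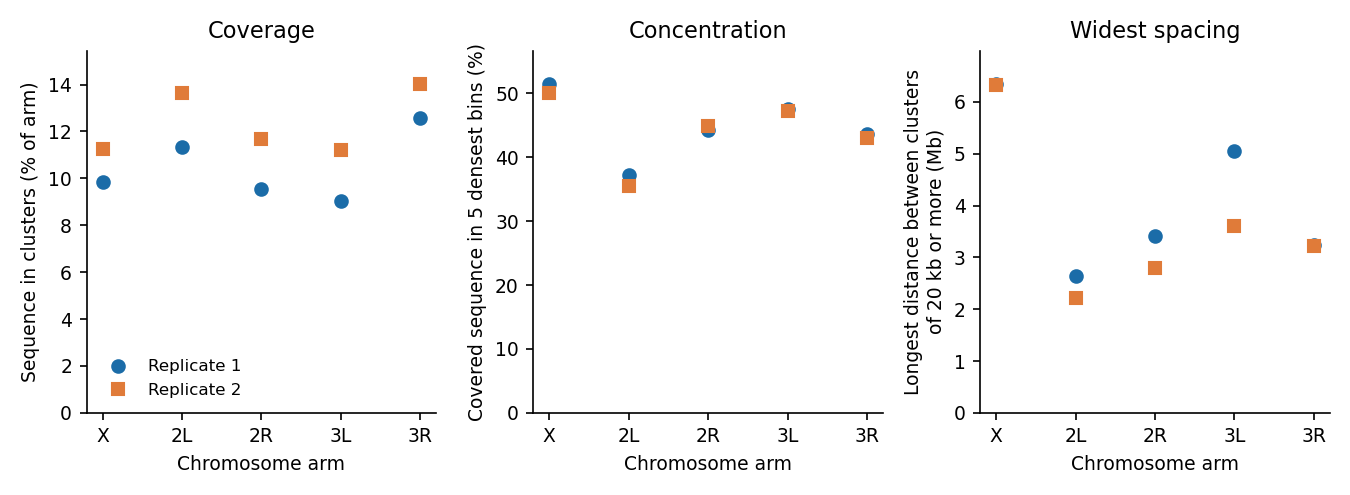
Coverage of each large arm (left, percent of arm length), share of its covered sequence in its 5 densest 1 Mb bins (middle, percent) and longest distance between clusters of 20 kb or more (right, Mb), with 1 point for each ChIP replicate and X at the left. X lies among the autosomal arms in coverage, and above them in the other panels, at 51.5% and 50.1% and at 6.35 and 6.33 Mb.

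Cluster widths on X resembled those of the autosomes over most of their range. The median was 1897 bp on X and 1789 bp on the autosomes in replicate 1, and 2188 bp on X and 2152 bp on the autosomes in replicate 2 (difference 71.8 bp ± 51.3, SD, n = 2, exact permutation p = 0.5). Clusters of 5 kb or more were 16.3% of X clusters against 14.5% of autosomal ones in replicate 1, and 20.5% against 24.2% in replicate 2. They held 68.2% and 77.7% of the covered sequence of X, against 67.5% and 80.7% of that of the autosomes. The sign of each difference changed between the replicates.

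In the replicate lists a smaller share of X clusters was between 10 and 50 kb wide, 5.52% against 7.16% on the autosomes in replicate 1 and 6.82% against 10.7% in replicate 2. The combined list went the other way, with 5.36% on X and 4.40% on the autosomes, and in replicate 1 the share on 2R, 5.49%, was as low as on X. X had 33 clusters of 10 kb or more in each replicate, of which 10 in replicate 1 and 12 in replicate 2 reached 50 kb. On the autosomes 33 of 178 such clusters reached 50 kb in replicate 1, and 55 of 211 in replicate 2. Clusters of 50 kb or more held 33.8% and 50.1% of the covered sequence of X, against 27.4% and 42.02% of that of the autosomes. X was second to 3R in this share in both replicates. Per length, clusters of 50 kb or more numbered 4.46 per 10 Mb of X in replicate 1 and 5.35 in replicate 2, against 3.42 and 5.69 on the autosomes, so that sign changed between the replicates. Clusters of 100 kb or more numbered 0 on X and 8 on the autosomes in replicate 1, and 6 on X and 20 on the autosomes in replicate 2.

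**Figure D4:**
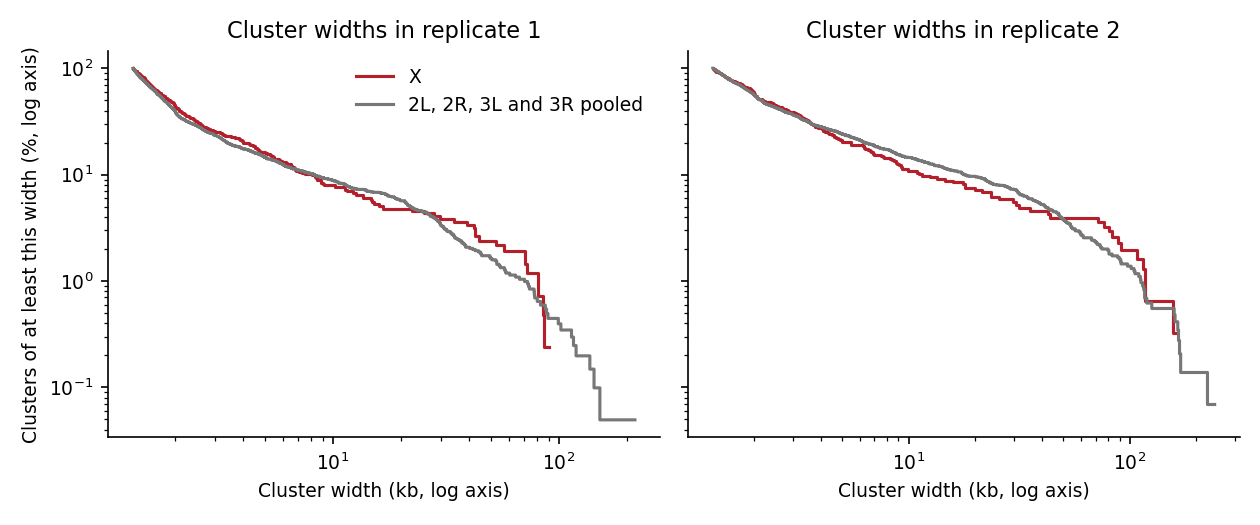
Share of clusters with at least a given width (vertical axis, percent, log scale) against width (horizontal axis, kb, log scale), for X and for the pooled autosomal arms in each replicate. The X line runs below the autosomal line between about 10 and 20 kb in both replicates, is above it for part of the range beyond 50 kb, and ends at 90.7 kb in replicate 1 and 160 kb in replicate 2.

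Scores were where X stood apart most. The score is the authors' value for each cluster. Its scale is unstated, and it was compared only inside a list. The median score was 0.769 on X and 0.638 on the autosomes in replicate 1, where the single arms lay between 0.638 and 0.648. In replicate 2 it was 0.753 on X and 0.638 on the autosomes, with arms between 0.623 and 0.646. In the combined list it was 0.511 on X and 0.436 on the autosomes, with arms between 0.433 and 0.440. X was thus above every autosomal arm in all 3 lists, by far more than the arms differed among themselves. Ranked among the clusters of the 5 large arms, the median X cluster stood at the 75.04th percentile in replicate 1 and at the 67.8th in replicate 2, against the 42.8th and the 44.3rd for the median autosomal cluster (X minus autosomes, 27.9 percentile points ± 6.16, SD, n = 2, exact permutation p = 0.5, the smallest possible). The combined list is made from the same series and does not add a replicate.

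Counting clusters at or above the median score of their whole list gave the same picture. On X 342 of 417 clusters were (82.0%) in replicate 1, where the whole list had 50.0%. In replicate 2 they were 236 of 308 (76.6%), where the whole list had 50.4%, and in the combined list 607 of 784 (77.4%), where the whole list had 50.0%. On the autosomes the shares were 43.0%, 43.9% and 42.9%. The lower end of the distribution was shifted too: the 5th percentile of X scores was 0.585 in replicate 1 and 0.552 in replicate 2, against 0.467 and 0.449 on the autosomes, and the lowest X score was 0.409 and 0.420, against 0.241 and 0.270.

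The higher scores were found in clusters under 20 kb and not in the tail of the highest scores. Under 2 kb the median was 0.706 on 230 X clusters and 0.590 on 1224 autosomal ones in replicate 1, and 0.657 on X and 0.551 on the autosomes in replicate 2. From 2 to 5 kb it was 0.820 on X and 0.697 on the autosomes in replicate 1, and 0.779 on X and 0.660 on the autosomes in replicate 2. From 5 to 20 kb it was 0.978 on X and 0.886 on the autosomes in replicate 1, and 1.00 on X and 0.845 on the autosomes in replicate 2. In each of these 3 classes X lay above every single autosomal arm in both replicates. At 20 kb or more the X medians, 1.56 and 2.21, lay inside the range of the arms, 1.38 to 1.81 and 1.71 to 2.46. The 95th percentile of X scores was 1.30 in replicate 1 and 1.81 in replicate 2, against 1.31 and 2.14 on the autosomes. Both X values lay inside the range of the single arms, 1.22 to 1.40 and 1.67 to 2.31. The top X scores were 2.23 and 3.09. Top scores of the single arms were 2.27 to 2.69 in replicate 1, all above X, and 2.79 to 3.18 in replicate 2, with X inside. X had fewer clusters than any of these arms, and a maximum tends to rise with number.

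**Figure D5:**
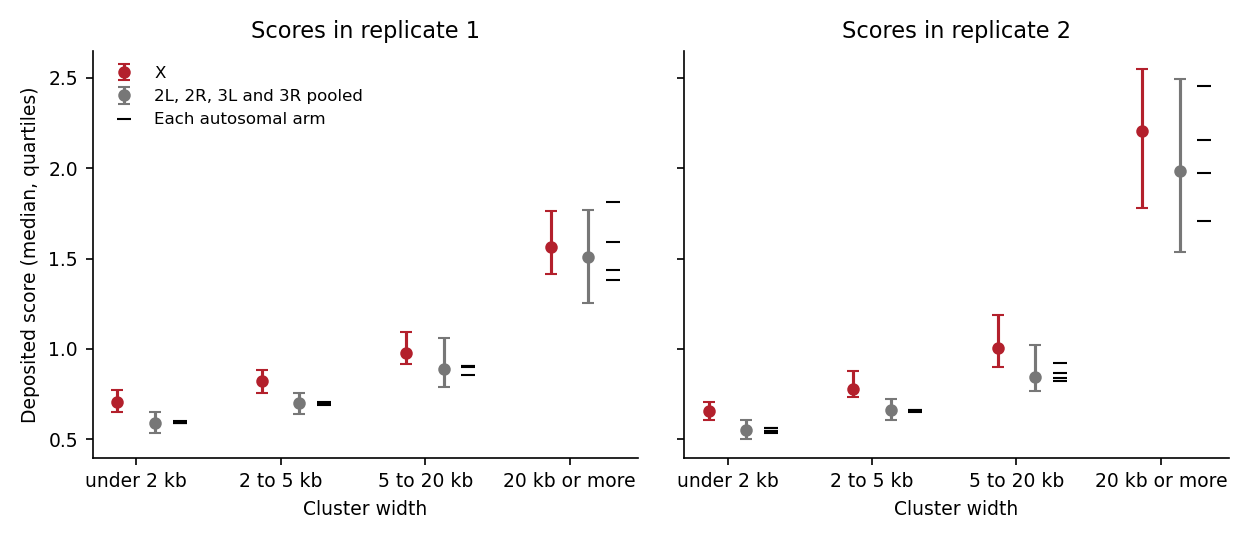
Deposited scores (vertical axis, unit not given) by cluster width in each replicate, with the median and quartiles of X and of the pooled autosomal arms and a dash for the median of each single arm. X is above all 4 arms in the 3 classes under 20 kb, such as 0.706 against 0.590 under 2 kb in replicate 1, and among them at 20 kb or more.

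The score difference ran along most of the chromosome. In replicate 1 the median percentile of the clusters in a 1 Mb bin was above 50 in 22 of 22 bins of X, and ranged from 61.5 to 83.5. On the autosomes it was above 50 in 33 of 95 bins. In replicate 2 it was above 50 in 21 of 22 bins of X and in 30 of 94 autosomal bins that held a cluster. The lowest X bin of replicate 2 had 23.4, below the median autosomal bin at 44.5. Nearly empty bins rest on few clusters, such as 1 in replicate 2 from 12 to 13 Mb. The thinly marked block from 10 to 16 Mb had median percentiles of 76.9 and 70.9, and the dense block from 4 to 10 Mb had 75.2 and 66.6. Scores on X were thus above those of the autosomes in the dense and in the thinly marked block alike. The number of copies of X in the larvae, the reads over X in the input, and the way the score was computed were not analysed here.

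By covered length, agreement of the replicates on X was inside the range of the autosomal arms. They shared 1.90 Mb of X, a Jaccard index (length in both over length in either) of 67.4%, against 65.6% for the pooled autosomes. Among the single arms it was lowest on 2R, 59.7%, and highest on 3R, 70.9%. Replicate 2 held 86.3% of the replicate 1 sequence of X, and replicate 1 held 75.5% of the replicate 2 sequence, against 86.7% and 73.0% on the autosomes. Covered length in replicate 2 was 1.14 times that in replicate 1 on X and 1.19 times on the autosomes.

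By clusters, 261 of 417 X clusters of replicate 1 shared at least 1 bp with replicate 2 (62.6%, 95% Wilson interval 57.9% to 67.1%), against 62.4% on the autosomes and 62.5% in the whole list. Of the replicate 2 clusters of X, 172 of 308 were found in replicate 1 (55.8%, 50.3% to 61.3%), against 50.6% on the autosomes and 51.2% in the whole list. The first share lay among the single arms (58.7% to 67.0%), and the second was above all 4 of them (47.1% to 54.5%), the nearest being 2R. The intervals cover counting error only and treat clusters as independent. The mean difference was 2.72 percentage points ± 3.54 (SD, n = 2, exact permutation p = 0.5), smaller than its own spread.

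Agreement on X depended on width. Under 2 kb, 39.6% of replicate 1 clusters of X (33.5% to 46.0%) and 29.4% of replicate 2 clusters (22.1% to 37.8%) were found again, against 44.3% and 24.0% on the autosomes. From 2 to 5 kb the shares were 85.7% and 61.3%, against 84.2% and 53.8%. From 5 to 20 kb all 48 clusters of replicate 1 and 40 of 41 clusters of replicate 2 were found, against 179 of 179 and 189 of 211 (89.6%) on the autosomes. At 20 kb or more all 20 and all 22 were, as were all 115 and all 140 on the autosomes. A wide cluster reaches a 1 bp overlap more easily, so the rise with width is partly fixed by the rule. Under 2 kb, X scores were higher in both replicates. The X share found again in this class was below the autosomal one in replicate 1 and above it in replicate 2.

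Wide X clusters came in pieces in replicate 1. Each replicate 2 cluster of 20 kb or more on X overlapped 4.00 replicate 1 clusters on average, against 3.81 on the autosomes, while each such replicate 1 cluster overlapped 1.00 of replicate 2, against 1.02. Edges were compared in 11 pairs of X clusters, all 20 kb or wider, with a mutual overlap of 50% or more. Of their 22 edges 13 lay within 500 bp of each other, with a median distance of 436 bp. On the autosomes 74 of 164 edges did (45.1%), with a median of 586 bp. At 21 of the 22 X edges the replicate 2 cluster was the one that extended further, as at 158 of the 164 autosomal edges. This direction was thus not particular to X.

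The combined list divided on X much as elsewhere. Of its 784 X clusters, 147 (18.8%, 16.2% to 21.6%) overlapped both replicate lists, against 16.9% on the autosomes and 17.0% in the whole list, and they held 69.3% of its covered sequence on X. Replicate 1 alone was hit by 125 and replicate 2 alone by 115. The remaining 397 (50.6%, 47.1% to 54.1%) overlapped neither, against 52.3% on the autosomes and 52.6% in the whole list, with a median width of 1237 bp. Even these had higher scores on X, with a median of 0.489 against 0.421 for autosomal clusters in neither replicate.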

How the data were processed

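ChIP-seq for H3K27me3 in whole larvae gave 3 lists of clusters. Reads were handled with Bowtie 0.12.7, per the submitters' processing notes, and coordinates follow FlyBase release 5, per the file headers. How clusters were called, at which threshold and with which use of the input, and how the combined list was made, is unstated in the labels and headers. The authors deposited 1 score per cluster, of unstated scale, which was compared, ranked and filtered only inside a list. Arm lengths came from the file headers. Input libraries entered no comparison, and read depth is unknown.

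Coverage, density, widths, gaps, score percentiles, 1 Mb bins and overlaps were computed for X and for 2L, 2R, 3L and 3R with scipy 1.17.1, pandas 2.3.3 and numpy 2.4.6 under Python 3.11.15. Plots used matplotlib 3.10.9. Differences per replicate were tested by exact paired permutation. Partial end bins were left out of bin measures. Interval arithmetic was tested on simulated data against counts of single bases, with 0 differences in 50 pairs of lists.

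Named clusters were the 10 widest and the 10 highest-scoring of at least 5 kb on X in the combined list, 15 in all, since 5 met both rules. Named bins were the 3 densest and 3 emptiest, and named runs the 5 longest without a replicate cluster. The members and rules were chosen with earlier results of these data known. Alternatives were a median score filter, minimum widths of 5 and 10 kb, merging of gaps under 5 kb, omission of each arm or replicate, the combined list, a 50% overlap, and bins of 500 and 250 kb. Gene lists were not measured.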

Additional observations from a re-analysis of the deposited data

How the results depend on the processing

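Of 86 recomputed differences between X and the autosomes, 75 kept their direction and, for the Jaccard index, moved by less than the SD over the autosomal arms. This count includes mild settings. Omitting a replicate repeats a value already averaged, and omitting an arm changes mainly the autosomal value. All changes of direction, except that of the median gap without replicate 1, came from settings that altered the set of clusters. Where both replicates were averaged, direction is that of their mean, and the replicates could differ in sign. The score difference kept its sign in all 10 settings, but fell to 0.14 percentile points with clusters of 5 kb or more, 3.08 with 10 kb or more and 4.50 with the median score filter. With clusters of 5 kb or more and with the median score filter, the replicates differed in sign. The SD difference of bin coverage kept its sign in all 13 settings, but depended on bin size. It fell from 0.822 percentage points to 0.261 with bins of 500 kb and 0.0385 with bins of 250 kb. With bins of 250 kb the replicates differed in sign. The median score filter removes fewer X clusters than autosomal ones by construction, and with it coverage (0.177 percentage points), cluster number (5.09 per Mb), median width (-1676 bp), median gap (-9829 bp) and the Jaccard index (-0.0645 percentage points) changed sign. Median width also reversed at 5 kb or more (-3340 bp) and after merging (-463 bp). Median gap also reversed after merging (-5203 bp), and was -170 bp without replicate 1 and 662 bp without replicate 2. The share found again reversed at 5 kb or more (-3.65 percentage points) and 10 kb or more (-2.31). Where no construction is named, the cause was not tested. The stretch without clusters of 20 kb or more, with its settings added after the lists were seen, averaged 3.15 Mb at a limit of 5 kb, 3.65 Mb at 10 kb and 4.78 Mb after merging, against 6.34 Mb as reported. No paired analysis was possible because only ChIP libraries have lists, so ChIP and input could not be paired by number; the paired test of X against the autosomes is within each ChIP library. Unknown depth limits any reading of cluster numbers.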

Other observations

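The ends of X were sparsely marked. The distal 250 kb held no cluster in either replicate, and the first clusters began at 263705 in replicate 1 and 258338 in replicate 2. Longer ends without a replicate cluster occurred on 2R, 762 kb, and on 2L, 608 kb, so this was not particular to X. The combined list had a cluster from 173 to 1332, at the tip of the sequence, that lay in no replicate list. The last 250 kb were covered at 1.98% in replicate 1, 0.690% in replicate 2 and 4.56% in the combined list. The separate heterochromatic sequence XHet, which is not counted as X here, had 0 clusters in each replicate and 4 in the combined list.

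Some narrow clusters of high score, named here after their values were seen, were found in 1 list alone. The 5 highest-scoring X clusters under 5 kb in the combined list were 1001 to 1822 bp wide and had no base in either replicate list. The first, from 21804345 to 21805345, had a score of 1.97, ninth among all X clusters, and lies in the 664 kb run without replicate clusters. Of the 5 such clusters of replicate 1, those from 12926426 to 12927758 and from 1893254 to 1894734 had scores of 1.13 and 1.03 and no base in replicate 2, while 2 of the others were covered there at 100% and 72.3% and the last at 1.88%. Of the 5 in replicate 2, the cluster from 13920567 to 13925486, 4920 bp wide, had a score of 1.29 and no base in replicate 1, and the other 4 were covered there at 42.2% to 98.8%.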
